A study of Homo sapiens with 24 samples.

Results

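Apolipoproteins are the protein part of plasma lipoproteins, and 10 of them were followed here in 2 hepatocellular carcinoma (HCC) cell lines treated with transforming growth factor beta 1 (TGFβ1), with an inhibitor of its receptor, or with both. The 10 genes, APOA1, APOA2, APOB, APOC1, APOC3, APOE, APOH, APOM, APOL1 and APOD, were taken as a family, and every non-control probe whose accession belongs to one of them was used. They were 10 of the 31204 genes to which the array's probes gave a name. Together they had 12 probes, with 2 probes for each of 2 members (APOA1 and APOM). Both lines, PLC/PRF/5 and SNU-449, are established ones that were derived from human HCC. In each line 4 groups of 3 independent cultures were compared after 16 h, namely untreated control cells, cells with 1 ng/mL recombinant human TGFβ1, cells with 10 µM galunisertib, and cells with both agents at these doses. All groups, controls included, were serum-starved overnight beforehand. Galunisertib, also called LY2157299, inhibits the kinase of the type I TGFβ receptor. Each line is a single tumour-derived model, so the difference between the lines is a difference between 2 cultured lines.

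The liver makes most circulating apolipoproteins. APOB is the structural protein of very-low-density lipoprotein and stays on its particle, which is built in the endoplasmic reticulum as lipid is loaded onto the nascent chain. APOA1 and APOA2 are the main proteins of high-density lipoprotein, and the small exchangeable proteins APOC1, APOC3 and APOE move between particles and govern how fast these are hydrolysed and taken up. The promoters of these genes are classic targets of hepatocyte transcription factors such as HNF4A and CEBPA. TGFβ is known to lower hepatocyte functions in liver cells, through receptor kinases that phosphorylate SMAD proteins.

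RNA was hybridised to 24 one-colour Agilent arrays, on 3 slides of 8 arrays. The level of a probe is given throughout as the log2 of its processed signal over the 75th percentile of the same array, so a level of 0 equals that percentile. Levels of different genes come from different probes and were not compared with each other. The 75th percentile lay between 145 and 262 intensity units, and between 41.6% and 49.6% of probes were well above background on an array. Signals below the level -4.13, a floor at 5.70% of the 75th percentile, were set to it. The replicate number is also the slide. A group sat at one fixed position of the slide, the same on all slides, so position and treatment cannot be told apart. RNA was measured in bulk, in which fewer expressing cells and less RNA per cell cannot be told apart.

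The labelled origin was checked against marker genes. All 10 hepatocyte markers were well above background on every PLC/PRF/5 array, and 6 of the 10 on every SNU-449 array. Albumin, TF and AHSG were at or next to the floor in SNU-449 control cells. The summed hepatocyte level was 951 to 1234 times the 75th percentile in PLC/PRF/5 control cells and 8.23 to 10.2 times in SNU-449 control cells. Of 7 macrophage markers, 2 were above background on all PLC/PRF/5 arrays and 1 on all SNU-449 arrays, and 1 of 6 endothelial markers was so in either line. Of 8 fibroblast and mesenchymal markers, 2 were above background on all PLC/PRF/5 arrays and 5 on all SNU-449 arrays. They summed to 1.75 to 1.89 times the 75th percentile in PLC/PRF/5 control cells and to 160 to 207 times in SNU-449 control cells. PDGFRB went the other way, with a median over the arrays of 0.56 in PLC/PRF/5 and -1.28 in SNU-449. THY1, LUM and DCN were at the floor on every array of both lines. The response of the pathway was followed on a list of 8 direct TGFβ targets. TGFβ1 raised 7 of 8 in SNU-449 and 5 of the 6 tested in PLC/PRF/5, and galunisertib added to TGFβ1 lowered all 8 and all 6, by limma at an adjusted p below 0.05. Galunisertib alone lowered 7 of 8 in SNU-449 and 2 of 6 in PLC/PRF/5, where the median of the list was -0.11. Over all genes, the shares called in SNU-449 were 10.5% for TGFβ1, 17.1% for the addition of galunisertib and 7.43% for galunisertib alone. In PLC/PRF/5 they were 13.5%, 39.1% and 5.42%. SMAD7, a feedback inhibitor of the pathway, rose with TGFβ1, by 0.65 (SNU-449) and by 0.80 (PLC/PRF/5).

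The promoter sequences of 3 members that changed with treatment are shown, because the treatments act through transcription factors that read such sequences. They were taken by gene symbol from RefSeq (GRCh38.p14), which held a promoter for 5 of the 10 members, and run 5′ to 3′ from 250 bases before the transcript start that the RefSeq table uses to 50 bases from it. For APOA2 and APOH this start is the end of the annotated gene, whereas for APOM it lies inside the annotated gene, downstream of its first base. Both strands were searched for TATAAA (the TATA box), CAAAGTCCA (a core of the HNF4 site), GTCTAGAC (the palindromic SMAD element) and CAGACAG (a SMAD element of the CAGA type). Capitals mark a match. No 2 of these motifs overlapped in the 3 windows.
APOA2, chr1:161223579-161223878, minus strand: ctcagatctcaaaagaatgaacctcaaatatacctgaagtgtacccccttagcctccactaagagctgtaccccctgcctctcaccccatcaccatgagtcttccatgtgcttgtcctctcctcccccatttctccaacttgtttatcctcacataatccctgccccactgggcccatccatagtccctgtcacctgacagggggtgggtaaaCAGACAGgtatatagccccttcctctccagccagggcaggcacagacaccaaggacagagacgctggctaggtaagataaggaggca
APOM, chr6:31655644-31655943, plus strand: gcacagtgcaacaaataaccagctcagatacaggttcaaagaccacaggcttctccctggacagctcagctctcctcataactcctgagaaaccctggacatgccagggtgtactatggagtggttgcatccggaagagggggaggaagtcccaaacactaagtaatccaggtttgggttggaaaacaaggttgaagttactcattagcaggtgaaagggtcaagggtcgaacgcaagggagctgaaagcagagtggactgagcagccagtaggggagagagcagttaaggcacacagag
APOH, chr17:66229366-66229665, minus strand: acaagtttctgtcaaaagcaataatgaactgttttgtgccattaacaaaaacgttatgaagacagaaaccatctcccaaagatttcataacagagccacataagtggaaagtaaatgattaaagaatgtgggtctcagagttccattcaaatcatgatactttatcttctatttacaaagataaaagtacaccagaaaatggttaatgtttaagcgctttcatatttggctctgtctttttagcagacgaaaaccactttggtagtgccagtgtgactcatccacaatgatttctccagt
Positions are counted from that start as +1. The APOA2 window held CAGACAG from position -37, a motif found in 6.11% of the 35116 promoters of this length. The APOM and APOH windows held none of the 4 motifs. TATAAA was in 11.5% of all promoters, CAAAGTCCA in 0.384% and GTCTAGAC in 0.202%. A match is a description of the letters and was not tested as a binding site.

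**Figure D1:**
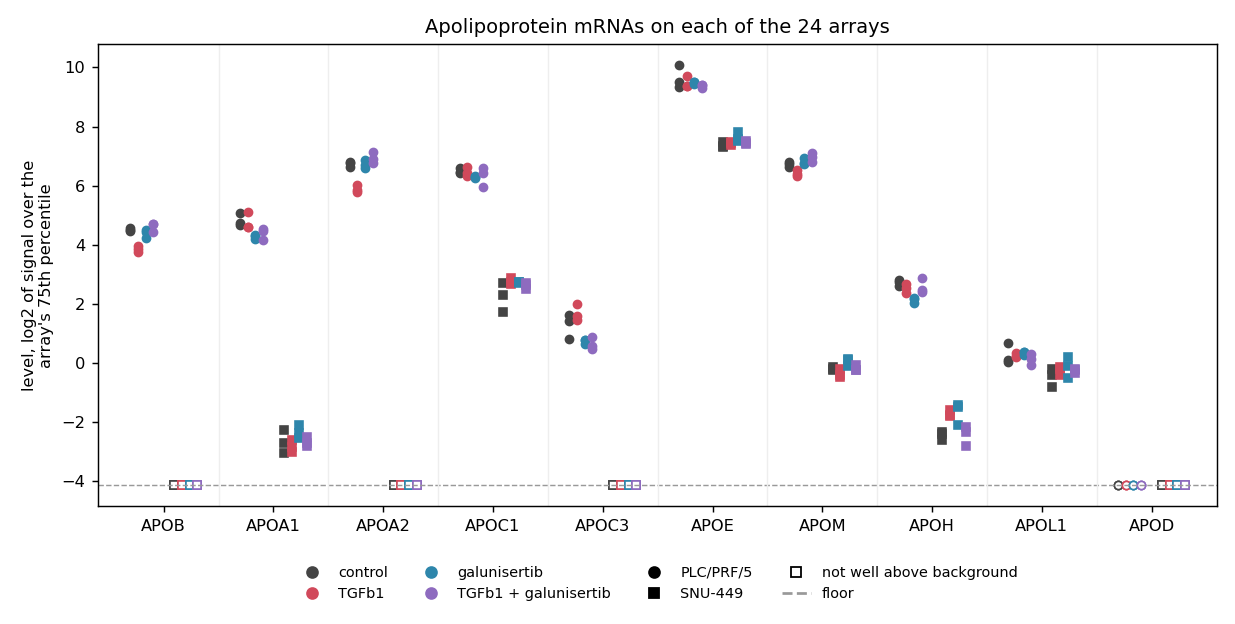
Level of each apolipoprotein mRNA on the 24 arrays (y axis, log2 of signal over the array's 75th percentile; genes on the x axis are measured by different probes and are not compared). Circles are PLC/PRF/5 and squares SNU-449, colours give the treatment, open symbols were not well above background, and the dashed line is the floor at -4.13. All PLC/PRF/5 points lie above all SNU-449 points for APOB, APOA1, APOA2, APOC1, APOC3, APOE, APOM and APOH, whereas APOL1 overlaps and APOD is at the floor on every array.

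The first comparison asked how the untreated lines differ. The 6 members measured in both lines were all higher in PLC/PRF/5, by limma over 24 arrays with Benjamini-Hochberg adjusted p below 0.05. Another 3, APOB, APOA2 and APOC3, passed the filter on dim probes through PLC/PRF/5 alone, so they had to differ, and no p-value is given for them. Of 17902 genes tested, 68.5% were called in this comparison and 33.9% were called higher in PLC/PRF/5, so a call here is the common case and the sizes say more. APOD, a lipocalin-type apolipoprotein of many tissues, was at the floor on all 24 arrays and was not tested.

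The members that the SNU-449 arrays did not measure gave bounds only. APOB was 4.52, 4.46 and 4.58 in the PLC/PRF/5 control cultures whereas none of the 12 SNU-449 arrays had it above background. The level in PLC/PRF/5 was higher by at least 401-fold. APOB is printed on the array in 10 copies. On the PLC/PRF/5 arrays these copies varied with a coefficient of 3.68% to 18.1% (median 6.79%). After outlier spots were left out, 8 to 10 copies remained on these arrays and all were well above background, whereas on SNU-449 arrays 0 of the 9 or 10 remaining were. APOA2, the second protein of high-density lipoprotein, stood at 6.78, 6.63 and 6.78 in PLC/PRF/5 control cells and was at least 1860-fold higher than in SNU-449, which again had no array above background. APOC3, an inhibitor of triglyceride hydrolysis, had the levels 1.62, 1.42 and 0.81, and was at least 42.6-fold higher. In these bounds the SNU-449 side is the weakest signal that counted as above background. They belong to this processing and are not bounds for every other one. Under the alternatives the log2 difference ran from 8.58 to 13.96 for APOA2 and from 6.23 to 11.54 for APOB. For APOC3 it ran from 3.27 to 9.01.

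The other members were above background in both lines. APOA1 was 5.07, 4.68 and 4.72 in PLC/PRF/5 and -3.03, -2.27 and -2.71 in SNU-449 control cells, a log2 difference of 7.49 ± 0.18 (SE; adjusted p = 4.36e-18). The second APOA1 probe was not well above background in SNU-449 and gave at least 205-fold. APOM, which carries sphingosine 1-phosphate on high-density lipoprotein, was 6.62, 6.72 and 6.79 against -0.14, -0.21 and -0.25. Its log2 difference was 6.91 ± 0.10, and 7.41 ± 0.12 by its second probe. APOH, also known as beta-2-glycoprotein I, a phospholipid-binding plasma protein, was 2.75, 2.61 and 2.82 against -2.60, -2.32 and -2.40, a difference of 5.17 ± 0.18. APOC1 was 6.61, 6.44 and 6.46 against 2.30, 1.73 and 2.70, a difference of 4.26 ± 0.18.

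APOE and APOL1 differed least. APOE, the ligand by which remnant particles are taken up, was 10.08, 9.52 and 9.34 in untreated PLC/PRF/5 cells and 7.31, 7.35 and 7.47 in untreated SNU-449 cells, and the difference was 2.27 ± 0.14 (adjusted p = 1.18e-11). APOE and APOC1 are direct neighbours on chromosome 19, and APOA1 and APOC3 on chromosome 11. APOL1, the trypanosome-lytic protein of high-density lipoprotein, was 0.66, 0.04 and 0.10 against -0.41, -0.80 and -0.21. Its control groups did not overlap, and the difference of 0.75 ± 0.18 (adjusted p = 9.41e-04) fell to 0.37 (adjusted p = 0.166) when arrays were scaled to their median. By the methods' t-test, run as an alternative, it did not pass either (adjusted p = 0.0716).

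With TGFβ1 alone, 2 of the 9 members tested in PLC/PRF/5 changed, both downward, against 13.5% of the 16684 genes tested. APOA2 was 6.03, 5.79 and 5.87 with TGFβ1 and 6.78, 6.63 and 6.78 without it. Every TGFβ1 array lay below every control array, and the difference was -0.84 ± 0.11 (SE) on the log2 scale (adjusted p = 9.16e-04). APOB was 3.95, 3.74 and 3.87 with TGFβ1 against 4.52, 4.46 and 4.58, also without overlap, a difference of -0.66 ± 0.10 (adjusted p = 0.00206). Within slides 1, 2 and 3 the differences were -0.76, -0.85 and -0.91 for APOA2, and -0.57, -0.72 and -0.71 for APOB.

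The other 7 members did not pass the test in that comparison. APOM was 6.51, 6.34 and 6.39 against 6.62, 6.72 and 6.79, with no overlap, a difference of -0.30 (95% interval -0.52 to -0.07, adjusted p = 0.0800), and its second probe gave -0.37. APOC3 was 2.02, 1.46 and 1.61 against 1.62, 1.42 and 0.81, a difference of 0.41 with an interval from -0.04 to 0.86 (adjusted p = 0.225). The intervals of APOA1, APOC1, APOE, APOH and APOL1 all included 0, and the widest of them ran from -0.52 to 0.20 (APOE). A change of 1 on the log2 scale lay outside all of these intervals.

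Galunisertib given without TGFβ1 asks what the inhibitor does to the cells' own signalling. In PLC/PRF/5 it lowered 1 of 9 members, APOH, against 5.42% of all genes called. APOH was 2.20, 2.04 and 2.18 with galunisertib and 2.75, 2.61 and 2.82 in control cells. The groups did not overlap, and the difference was -0.59 ± 0.13 (adjusted p = 0.0277), with -0.55, -0.57 and -0.64 within the slides. The call rested on every array, since leaving out any 1 of the 6 ended it, with adjusted p up to 0.454 over 18 other settings. APOA1 was 4.32, 4.19 and 4.28 against 5.07, 4.68 and 4.72, also without overlap, but its difference of -0.56 did not pass (adjusted p = 0.0694), and its second probe gave -0.31. APOC3 was 0.78, 0.78 and 0.65 against 1.62, 1.42 and 0.81, a difference of -0.55 (adjusted p = 0.141). APOA2 and APOB were within -0.26 to 0.24 and -0.36 to 0.09 of their controls by the 95% interval.

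**Figure D2:**
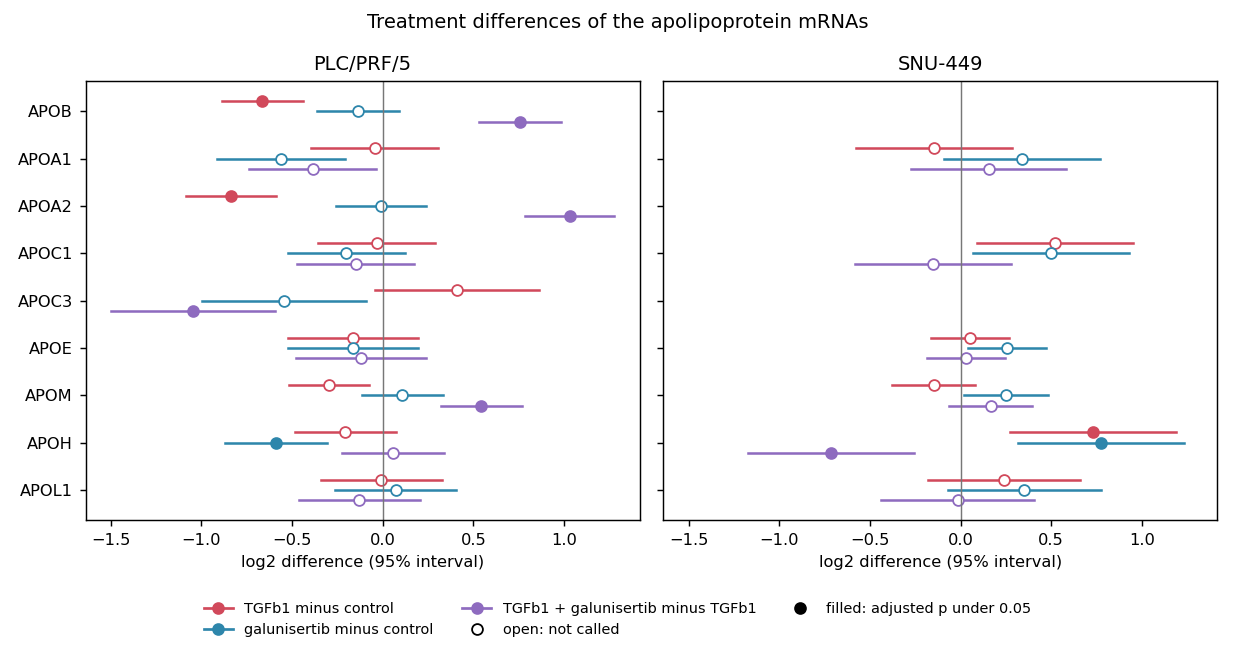
Log2 difference (x axis) of each apolipoprotein mRNA (y axis) for 3 treatment comparisons in PLC/PRF/5 (left) and SNU-449 (right), as points with 95% intervals from limma; filled points had an adjusted p below 0.05. In PLC/PRF/5 APOA2 and APOB lie at -0.84 and -0.66 with TGFβ1 and at 1.03 and 0.76 when galunisertib was added to it, and in SNU-449 only APOH has filled points.

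Adding galunisertib to TGFβ1 changed APOA2, APOB, APOM and APOC3 in PLC/PRF/5. These 4 of 9 were called, 3 higher and 1 lower, a share to be read against the 39.1% of all genes called in the same comparison. APOA2 was 6.89, 6.75 and 7.13 with both agents against 6.03, 5.79 and 5.87 with TGFβ1 alone. No array overlapped, and APOA2 rose by 1.03 ± 0.11 (adjusted p = 7.73e-05). APOB was 4.71, 4.43 and 4.69 against 3.95, 3.74 and 3.87, a rise of 0.76 ± 0.10 (adjusted p = 2.90e-04). APOM was 7.12, 6.79 and 6.98 against 6.51, 6.34 and 6.39, a rise of 0.54 ± 0.10 (adjusted p = 0.00179), with 0.48 (adjusted p = 0.00946) by its second probe.

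APOC3 moved the other way. It was 0.87, 0.49 and 0.58 with both agents against 2.02, 1.46 and 1.61 with TGFβ1 alone, a difference of -1.05 ± 0.20 (adjusted p = 0.00246) without overlap between the groups, and -1.15, -0.96 and -1.03 within the slides. Its chromosomal neighbour APOA1 was 4.48, 4.15 and 4.54 against 5.11, 4.61 and 4.61, a difference of -0.39 that did not pass (adjusted p = 0.0788) although the groups did not overlap. The second APOA1 probe gave -0.44. APOC1, APOE, APOH and APOL1 differed by -0.15, -0.12, 0.06 and -0.13, each with an interval that included 0. Across the 4 groups of PLC/PRF/5, the order of APOA2 was TGFβ1 lowest, then galunisertib, control and both agents, and the 3 upper groups overlapped in their array values. APOC3 had both agents and galunisertib alone at the bottom, overlapping each other, and control and TGFβ1 at the top, also overlapping, with the lowest control array inside the range of both agents.

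**Figure D3:**
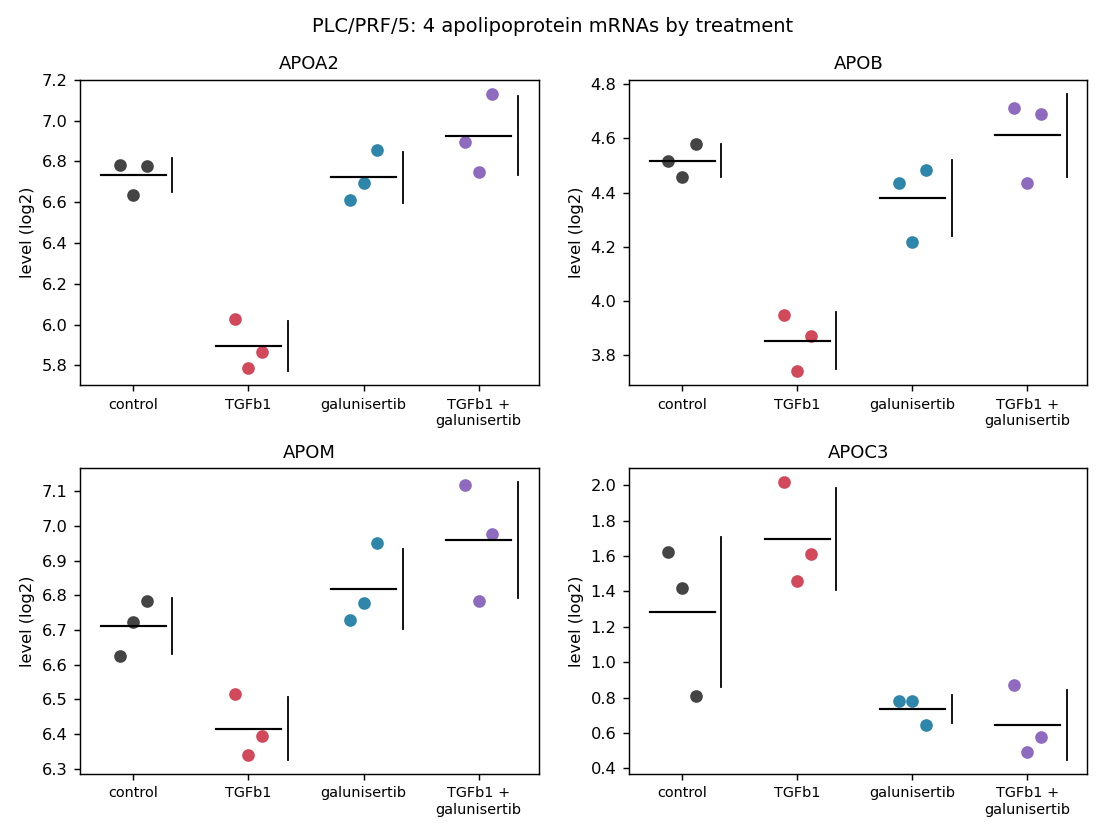
Level (y axis, log2 of signal over the array's 75th percentile, separate axis ranges that do not start at 0) of APOA2, APOB, APOM and APOC3 in PLC/PRF/5 by treatment (x axis). Points are the 3 cultures, horizontal lines the means and vertical lines the mean ± 1 SD; for APOA2, APOB and APOM the TGFβ1 cultures lie below all others, and for APOC3 they lie above the cultures with galunisertib.

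Whether galunisertib acted differently with and without TGFβ1 was tested as an interaction, that is, the effect of galunisertib in the presence of TGFβ1 minus its effect in its absence. In PLC/PRF/5 it was called for 2 of 9 members, against 8.76% of genes. The interaction was 1.04 ± 0.16 (SE) for APOA2 (adjusted p = 0.00442), and 1.04, 0.90 and 1.19 within the slides. It was 0.90 ± 0.14 for APOB (adjusted p = 0.00574). Both mRNAs were near their control level with galunisertib alone, and rose on its addition to TGFβ1. For APOH the interaction of 0.65 just missed the threshold (adjusted p = 0.0501). For APOM it was 0.44 (adjusted p = 0.0816), and for APOC3 it was -0.50, with an interval from -1.14 to 0.14. The comparisons with and without galunisertib share control or TGFβ1 arrays, so they are not independent of each other.

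In SNU-449 APOB, APOA2, APOC3 and APOD were not measured above background in any group, and 6 members were tested. Each of the treatment comparisons called 1 of the 6, APOH in every case. The share of all 16101 genes called was 10.5% for TGFβ1, 7.43% for galunisertib and 17.1% for galunisertib added to TGFβ1. APOH was -2.60, -2.32 and -2.40 in control cells, -1.79, -1.74 and -1.59 with TGFβ1, -1.43, -2.10 and -1.47 with galunisertib, and -2.15, -2.31 and -2.81 with both. The control group and the group with both agents overlapped each other and lay below the groups with either agent alone, which also overlapped each other. These are dim signals, above background on all 12 arrays but far under the array's 75th percentile.

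APOH rose by 0.73 ± 0.21 with TGFβ1 (adjusted p = 0.0491) and by 0.78 ± 0.21 with galunisertib (adjusted p = 0.0483), and changed by -0.71 ± 0.21 when galunisertib was added to TGFβ1 (adjusted p = 0.0375). The interaction was -1.49 ± 0.29 (adjusted p = 0.0276), against 2.62% of genes called, and -1.53, -0.80 and -2.15 within the slides. It was lost in 11 of 23 alternatives, among them the omission of any TGFβ1 array, of control or galunisertib replicate 1 or 3, or of replicate 2 of the cultures with both. All 4 calls lay close to the threshold. With the replicate number as a block, which same-numbered arrays bore out for the TGFβ1 comparison and for the addition of galunisertib to TGFβ1, the adjusted p was 0.0832 and 0.0648, so neither remained a call. The block ended the other APOH calls too, with adjusted p = 0.0798 for galunisertib alone and 0.0632 for the interaction. The call for galunisertib alone held in 2 of 18 alternatives. With the other background correction, normexp, the effects were 0.25 for either agent alone. Leaving out any 1 of the 6 arrays ended the TGFβ1 call. The galunisertib call was lost without any control array or without galunisertib replicate 1 or 3, and that for both agents without any TGFβ1 array or without replicate 2 or 3 of the cultures with both.

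**Figure D4:**
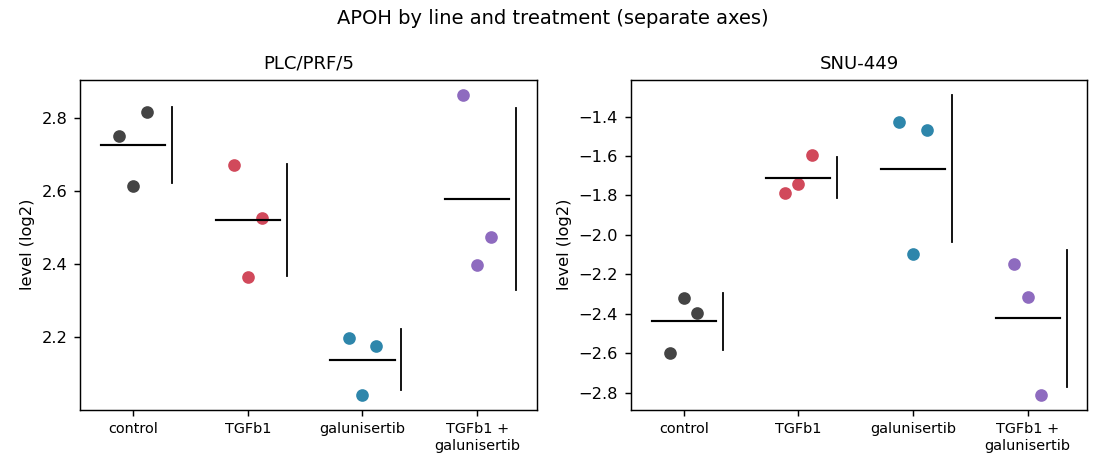
Level of APOH (y axis, log2 of signal over the array's 75th percentile, with a separate range for each line) by treatment (x axis) in PLC/PRF/5 (left) and SNU-449 (right). Points are the 3 cultures, horizontal lines the means and vertical lines the mean ± 1 SD; galunisertib alone is the lowest group in PLC/PRF/5, and in SNU-449 either agent alone lies above control and above both agents.

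The other SNU-449 members did not pass. APOC1 was 2.67, 2.76 and 2.87 with TGFβ1 and 2.75, 2.73 and 2.76 with galunisertib, against 2.30, 1.73 and 2.70 in control cells. The control cultures ranged from 1.73 to 2.70, and the differences of 0.52 (adjusted p = 0.128) and 0.50 (adjusted p = 0.147) did not pass. APOE was 7.82, 7.58 and 7.50 with galunisertib against 7.31, 7.35 and 7.47, a difference of 0.26 (adjusted p = 0.137). For APOM both probes were higher with galunisertib, without overlap, but they differed in size and in whether they passed. The brighter probe was 0.12, -0.09 and 0.13 against -0.14, -0.21 and -0.25, a difference of 0.25 that did not pass, and the dimmer one was -1.29, -1.48 and -1.45 against -2.22, -1.77 and -2.05, a difference of 0.61 that passed among all probes (adjusted p = 0.0254). APOA1 and APOL1 had galunisertib differences of 0.34 and 0.35, with intervals that included 0 and groups that overlapped.

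The effects were then compared between the lines in one fit over 24 arrays. The effect of galunisertib alone differed for 2 of 9 members, against 5.87% of genes, both being more positive in SNU-449. For APOH the difference of the effects was 1.36 ± 0.25 (adjusted p = 0.00216), from -0.59 in PLC/PRF/5 and 0.78 in SNU-449, and it was 1.72, 0.80 and 1.57 within the slides. For APOA1 it was 0.90 ± 0.26 (adjusted p = 0.0461), from -0.56 and 0.34, neither of which was a call in its own line. This APOA1 difference was lost in 17 of 23 alternatives, among them the omission of any PLC/PRF/5 control or galunisertib array, of SNU-449 control replicate 1 or 3, and of SNU-449 galunisertib replicate 2 or 3. The second APOA1 probe was at the floor on every SNU-449 array. Its difference of 0.31 (adjusted p = 0.517, limma among all probes) restates its change in PLC/PRF/5. The effect of TGFβ1 differed for 3 of 9, against 8.62% of genes. Of these only APOH was measured in both lines, with -0.21 in PLC/PRF/5 and 0.73 in SNU-449, a difference of 0.94 ± 0.25 (adjusted p = 0.0216) that was lost without PLC/PRF/5 control replicate 3, PLC/PRF/5 TGFβ1 replicate 2, SNU-449 control replicate 1 or SNU-449 TGFβ1 replicate 3. For APOA2 and APOB the SNU-449 values are all at the floor, and the differences of 0.84 and 0.66 restate their fall in PLC/PRF/5. The 2 APOM probes disagreed. By limma the brighter gave 0.15 (adjusted p = 0.628), and the dimmer gave 0.65, which passed among all probes (adjusted p = 0.0242). In SNU-449 their TGFβ1 effects were -0.15 and 0.27, and neither passed.

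Among genes of lipoprotein assembly and secretion, MTTP followed APOB in direction in PLC/PRF/5. MTTP encodes the transfer protein that loads lipid onto APOB. It changed by -0.72 with TGFβ1 (adjusted p = 0.00359) and by 0.83 when galunisertib was added (adjusted p = 4.82e-04), with an interaction of 1.24 (adjusted p = 0.00290). In SNU-449 MTTP, like APOB, was at the floor in control cells. Of the 14 genes of this list tested in PLC/PRF/5, TGFβ1 raised 1 and lowered 1, and galunisertib added to TGFβ1 raised 5 and lowered 2, beside 13.5% and 39.1% of all genes called. The list's median was 0.07 in the latter, beside 0.06 over all genes. The cargo receptor MIA2 fell by 0.77 there and the coat component SEC23A rose by 0.60.

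Other apolipoproteins outside the 10 were mostly not called in the treatment comparisons. Between the untreated lines, 4 of the 9 tested were higher in PLC/PRF/5 and 2 were lower, beside 68.5% of all genes called. APOC4, which lies next to APOC1, fell by 1.21 in PLC/PRF/5 when galunisertib was added to TGFβ1 (adjusted p = 0.00855), in a list of which 2 of 8 rose and 1 fell, against 39.1% of all genes called. APOO, a mitochondrial protein despite its name, rose by 0.74 there. In SNU-449 APOL6, a relative of APOL1, rose by 0.94 with galunisertib (adjusted p = 0.00982) and by 1.19 when it was added to TGFβ1 (adjusted p = 7.71e-04), from levels close to the floor.

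Genes that remodel plasma lipoproteins moved in both directions. In PLC/PRF/5 the high-density lipoprotein protein SAA4 changed like APOA2 in sign, by -0.96 with TGFβ1 and by 1.50 when galunisertib was added (adjusted p = 2.77e-04 and 4.94e-06). Of the 10 genes tested there, the addition of galunisertib raised 3 and lowered 4 (39.1% of all genes called). Among the latter, LCAT, which esterifies cholesterol on high-density lipoprotein, fell by 1.03. In SNU-449 ABCA1, the transporter that loads lipid onto APOA1, rose by 1.49 with TGFβ1 (adjusted p = 0.00135) and fell by 1.82 when galunisertib was added (adjusted p = 2.26e-04). ANGPTL4, an inhibitor of lipoprotein lipase, rose by 1.38 and fell by 1.07 in the same 2 comparisons. APOA1 itself differed there by -0.15 and 0.15, with intervals that included 0.

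Among receptors of lipoproteins, galunisertib alone raised 2 in each line, of 12 tested in PLC/PRF/5 (5.42% of all genes called) and 13 in SNU-449 (7.43%). TGFβ1 lowered 1 of 13 in SNU-449 (10.5% of all genes called). In PLC/PRF/5 it raised 1 and lowered 2 of 12 (13.5%). SORL1, a sorting receptor that binds APOE, fell by 0.73 with TGFβ1 in SNU-449 and rose by 0.44 in PLC/PRF/5. That difference between lines was -1.17 (adjusted p = 1.46e-04). When galunisertib was added to TGFβ1 in PLC/PRF/5, 3 of 12 receptors rose and 1 fell, beside 39.1% of all genes called. The one that fell was LRP1, which takes up remnants, by 1.09.

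The transcription factors that act on apolipoprotein genes were set beside the members. Untreated, 13 of 19 factors tested were higher in PLC/PRF/5 and 3 were lower, beside 68.5% of all genes called and 33.9% called higher there. CREB3L3, HNF4A, FOXA3 and NR0B2 were above background on no SNU-449 array, so they passed the filter through PLC/PRF/5 alone and had to differ. CEBPA, above background on 10 of the 12 SNU-449 arrays, was also higher. The repressor NR2F1, above background on 5 of the 12 PLC/PRF/5 arrays, was the furthest in the other direction. In SNU-449 galunisertib raised 6 of 15 (7.43% of all genes called), among them FOXA2 by 1.02 and ONECUT1 by 0.97, and the list's median was 0.22, beside 0.09 over all genes. TGFβ1 lowered 5 of 15 there (10.5% of all genes called), with ONECUT1 at -1.61 (adjusted p = 3.19e-04) and FOXA2 at -0.80, and it raised NR5A2 by 0.81. Of the 6 members measured in that line, APOH was called with galunisertib and with TGFβ1, and rose in both.

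In PLC/PRF/5 the same list split. TGFβ1 raised 2 of 18 factors and lowered 2 (13.5% of all genes called), with NR5A2 at 0.61 and the corepressor NR0B2 at -0.63. When galunisertib was added to TGFβ1, 6 of 18 factors rose and 8 fell, against 39.1% of all genes called, of which 4306 rose and 2214 fell. The median of the factors was -0.22, beside 0.06 over all genes. CREB3L3, a liver factor that activates genes of triglyceride metabolism, changed by -1.003 (adjusted p = 1.97e-04), ONECUT1 by -0.94, CEBPA by -0.82 and HNF4A by -0.67 (adjusted p = 0.0145). The HNF4A probe was dim in PLC/PRF/5, with levels between -3.24 and -2.20, and not above background on any SNU-449 array. Galunisertib alone lowered 3 of the 18, ONECUT1 by 0.63, CREB3L3 by 0.61 and FOXA3 by 0.53, and raised FOXA2 by 0.27. The effect of galunisertib on ONECUT1 differed between the lines by 1.60 (adjusted p = 6.81e-05). Of the hepatocyte markers in PLC/PRF/5, TGFβ1 lowered 4 of 10, with ALB at -0.94 and AHSG at -0.86, against 13.5% of all genes called. The addition of galunisertib raised 5 of 10, with AHSG at 1.39, beside 39.1% of all genes called. Their part in the changes of the apolipoproteins was not tested.

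**Figure D5:**
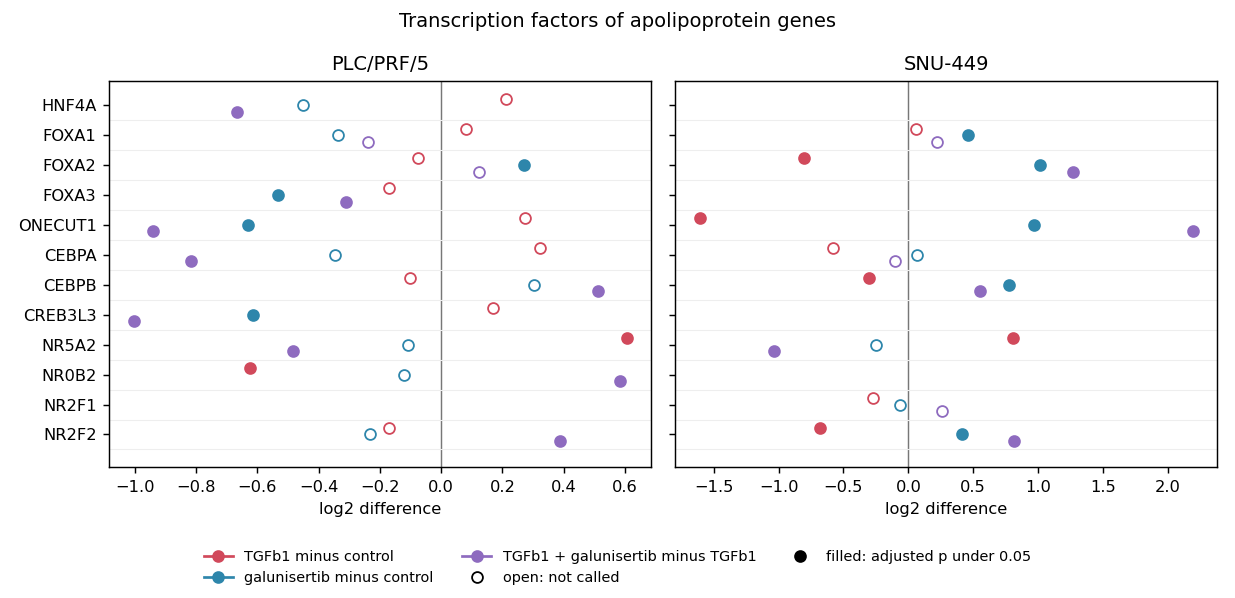
Log2 difference (x axis, with a separate range for each line) of transcription factors of apolipoprotein genes (y axis) for 3 treatment comparisons in PLC/PRF/5 (left) and SNU-449 (right); filled points had an adjusted p below 0.05, and a factor without points was not tested. ONECUT1 lies at -0.94 in PLC/PRF/5 and at 2.19 in SNU-449 when galunisertib was added to TGFβ1.

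The genes whose levels ran closest to a member over the 12 arrays of a line were found by Pearson's correlation, for the pair of members with the widest range of group means in each line. The 12 points share slides, treatments and scaling, so the coefficients are descriptions. In PLC/PRF/5 APOA2 was closest to GLYCTK (r = 0.974), CCNC (0.973) and SLC22A23 (0.967), and APOC3 to the long noncoding RNA lnc-TRPT1-1 (0.966), HACD2 (0.958) and lnc-THBS3-1. In SNU-449 APOH was closest to GASK1B (0.928), RABAC1 (0.921) and NDUFA13 (0.917), and APOC1 to LINC01001 (0.957), CFDP1 (0.949) and ARPC2 (0.935), among 14857 genes compared in PLC/PRF/5 and 13978 in SNU-449. APOC1 was called in no SNU-449 comparison. Its level was 1.73 in control replicate 2 and at least 2.30 on every other array of the line. How far its coefficients rest on that array was not tested.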

How the data were processed

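RNA of 24 cultures was labelled with Cy3 and hybridised to Agilent SurePrint G3 arrays. The authors deposited, per array, the Feature Extraction (version 10.7.3.1) output, whose processed signal is an intensity after background subtraction and detrending, not normalized between arrays. They also deposited a GeneSpring table of log2 values, scaled to the 75th percentile and centred per probe, which was used as an alternative only. Control spots, and 111 to 216 outlier spots per array, were left out, spots of a probe were averaged, and each signal was divided by the array's 75th percentile. The weakest signal called above background on each array was found, and its median over arrays served as a floor after scaling. In all, 0 spots were saturated. Of 58201 probes, 31104 were named through RefSeq accessions and 10719 by LNCipedia names. Probes entered the test if all arrays of 1 or more groups had them well above background, and a gene took its tested probe with the highest mean. The test was limma 3.58.1 in R 4.3.3 over the 12 arrays of a line, or over 24 for comparisons between lines, with Benjamini-Hochberg adjustment over all genes tested, and a call needed an adjusted p below 0.05. The study used a 2-sample test under a random variance model, and limma, which likewise shares the spread between genes, took its place.

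The members and gene lists were chosen with earlier results of these data known. All 10 members are named. From the other lists at most 4 called genes per comparison with the largest differences are named, and some of them are not reported here. Same-numbered arrays share a slide. Their deviations from the group means correlated above 0.1 in every pair in 3 comparisons, TGFβ1 in PLC/PRF/5 (lowest pair 0.17), TGFβ1 in SNU-449 (lowest 0.13) and the addition of galunisertib to TGFβ1 in SNU-449 (lowest 0.10), and not in the other comparisons. The normexp alternative used median rather than mean foreground signals, because the files hold no mean. The fit was tested on simulated data with independent noise and no slide effect, so that test does not cover the shared slides. The number of arrays limits the precision.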

Additional observations from a re-analysis of the deposited data

Results flagged for a closer look

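6 results were picked out because an effect depended on the line or on the other agent. The effect of galunisertib alone differed between the lines, being more positive in SNU-449, for APOA1 (0.898 on the log2 scale) and for APOH (1.36). The effect of TGFβ1 was also more positive in SNU-449 for APOH (0.935). Within SNU-449 the effect of galunisertib on APOH was lower by 1.49 in the presence of TGFβ1 than in its absence (interaction -1.49). Within PLC/PRF/5 it was higher in the presence of TGFβ1 for APOA2 (1.04) and APOB (0.895). All 6 are tests of the difference itself by limma, and no cause was tested. Of 23 alternatives, the APOA1 difference was lost in 17 and the APOH interaction in SNU-449 in 11. The APOH difference for galunisertib, and the interactions of APOA2 and APOB, were each lost in 1. For TGFβ1 the APOH difference was lost in 6.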

How the results depend on the processing

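Scaling to the array median moved the median of all genes most, in the basal comparison from 0.06 to -0.28, and no called difference of a member changed sign under any alternative run. Counts of called members moved as follows. For the untreated lines (9) it was 8 with array median scaling and the t-test, and 6 with probes above background on every array. The 9 include APOB, APOA2 and APOC3, which had to differ and which that last setting did not test. For galunisertib in SNU-449 (1 member) the count was 0 with quantile normalization, array median scaling, the 75th percentile over probes above background on all arrays, the authors' table, a floor at 0.5 of its value, no filter on dim probes, the replicate block, the arrays of the 2 groups alone, and the methods' t-test, and with normexp and with the mean of probes the 1 call was of a member other than APOH. For galunisertib in PLC/PRF/5 (1) it was 2 with quantile normalization, that other 75th percentile and the replicate block, and 0 with array median scaling, the authors' table, no filter, the 2 groups alone and the t-test. For TGFβ1 in SNU-449 (1) it was 0 with normexp, array median scaling, a floor at 0.5 of its value, no filter and the replicate block, and for TGFβ1 in PLC/PRF/5 (2) it was 1 with array median scaling. For galunisertib added to TGFβ1 in SNU-449 (1) it was 0 with array median scaling, no filter, the replicate block and the t-test. For the difference of galunisertib effects between lines (2) it was 0 with array median scaling and 1 with the authors' table, a floor at 0.5 of its value, no filter, the mean of probes, the replicate block and the groups compared alone. For the difference of TGFβ1 effects (3) it was 0 with array median scaling, 1 with the authors' table and 1 with probes above background on every array. For the interaction in SNU-449 (1) it was 0 with normexp, no filter and the replicate block, and in PLC/PRF/5 (2) it was 0 with array median scaling. Leaving out 1 array gave 0 to 1 for galunisertib in either line, for TGFβ1 in SNU-449, for its combination with galunisertib in SNU-449 and for the interaction in SNU-449, 1 to 2 for the difference of galunisertib effects, 2 to 4 for that of TGFβ1 effects and 2 to 4 for the interaction in PLC/PRF/5. The replicate block ended no other call and gave 5 members for the addition of galunisertib to TGFβ1 (4) and 3 for the interaction (2) in PLC/PRF/5. Calls over all genes moved as well. For galunisertib in SNU-449 they fell from 1196 to 238 with array median scaling, 197 with the 2 groups alone and 87 with the t-test. The other settings listed with a count of 0 there kept 949 to 1189. For galunisertib in PLC/PRF/5 they fell from 904 to 88, 167 and 171 in the same settings. Array median scaling took the interaction in PLC/PRF/5 from 1462 to 126 calls. The cause of these changes was not tested.
Members at the floor have only a bound in SNU-449, and no effect of an agent on them could be measured there.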
